A study of Mus musculus with 108 samples.

Results

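Potassium channel genes are described here as 93 protein-coding genes of the count table, out of 53465 rows and 21942 protein-coding rows. Members were chosen by symbol alone, as names that begin with Kcn and a letter from a to v, with Kcne2 left out by that choice. No expression value entered the choice. They fall into 30 voltage-gated pore-forming genes (Kv), 10 silent Kv subunits that modify other Kv channels without forming their own, 15 inward rectifiers (Kir), 14 two-pore-domain genes (K2P), 8 calcium- or sodium-activated genes and 16 accessory genes.

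Potassium channels let potassium leave or enter the cell and so set the resting potential, the shape of the action potential and the firing rate of neurons. Kv channels open on depolarization, Kir channels pass current best near the resting potential, K2P channels carry background leak, and the calcium- or sodium-activated channels open when those ions enter the cell. Accessory subunits set the gating, trafficking and surface level of the pore-forming subunits. In glia, Kir channels take up the potassium that active neurons release.

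Bulk RNA was sequenced from 3 brain regions, the cerebral cortex (CX), the hippocampus (HIP) and the cerebellum (CB), of wild-type (WT) and Cul3+/- mice, written HET, at E17.5, P7 and the adult period labelled P35. The HET mice carry a germline frameshift insertion in Cul3, the scaffold of a family of ubiquitin ligases, and descend from a single founder bred to C57BL/6N mice, which the labels spell C56Bl/6N. WT mice were untreated controls of the same strain, each mouse gave 1 library per region, and the labels give no sex. Groups held 6 mice, and 5 in adults, because the labels and the study's sample table gave opposite genotypes for 2 adult mice, whose 6 libraries were left out.

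Library totals ran from 15126093 to 44411259 estimated counts in the table of 108 libraries, of which all but those 6 were used. Levels are counts per 1000000 counts of the library (CPM), scaled by trimmed mean of M-values (TMM) factors. Region markers matched the labels: at E17.5 in WT mice the forebrain marker Neurod6 had a mean of 628 CPM in CX and 30.3 CPM in CB, and the cerebellar marker En2 0.0786 CPM in CX and 85.1 CPM in CB. Cul3 itself was lower in HET in all 9 combinations of period and region, by 0.74 to 0.99 on the log2 scale, with no overlap of the groups. Libraries stood apart in a few respects that touch the members. The E17.5 mice numbered 3 and 4 of both genotypes had CX and HIP libraries with summed dividing-cell markers of 653 to 910 CPM, against 264 to 597 CPM in the others, and members' median deviations of -0.72 to -0.20 on the log2 scale from the group median. These 4 mice share a code in their titles whose meaning is not given. In adult CB, WT replicate 3 had the highest value for 38 of the 63 members that averaged at least 1 CPM in the other 4 mice. In P7 CX, WT replicate 4 did so for 33 of 75. The share of all genes highest in these libraries is not given, so the counts are not read as particular to the members. Summed choroid plexus markers passed 200 CPM in 19 libraries.

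Levels between genes were compared per kb of exon, as CPM per kb averaged over the libraries used, a mean that pools groups whose levels differ. Kcnd2, a Kv subunit of somatodendritic A-type current, was the highest member at 31.3 CPM per kb of all annotated exon. Kcnk1, a K2P channel, followed at 30.3 and Kcnab2, a cytoplasmic beta subunit of Kv1 channels, at 25.0. In the Kv class, the Kv1 subunits Kcna6 and Kcna2 stood at 13.2 and 11.7 CPM per kb.

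Kcnj3, a G-protein-gated subunit, led the Kir class at 18.3 CPM per kb, before Kcnj4, a strong rectifier, at 14.6, Kcnj9, another G-protein-gated subunit, at 12.5 and Kcnj11, the pore of ATP-sensitive channels, at 7.24. Among K2P genes the mechano- and lipid-sensitive Kcnk10 and Kcnk2 stood at 9.27 and 6.08 CPM per kb and the acid-sensitive Kcnk3 at 3.47. Kcnf1 led the silent subunits at 11.4 CPM per kb, with Kcnv1 at 8.40, Kcng4 at 5.46 and Kcns2 at 4.56. Kcnma1, the large-conductance calcium-activated channel, led its class at 9.26 CPM per kb, before the sodium-activated Kcnt1 at 4.99 and Kcnt2 at 4.14 and the small-conductance Kcnn1 at 3.96. After Kcnab2, the highest accessory genes were Kcnip3 at 15.9 and Kcnip2 at 13.3, calcium-binding partners of Kv4 channels, and Kcnmb4, a partner of Kcnma1, at 11.6. With the longest coding transcript as the length, Kcnab2 stood highest of all members at 35.5 CPM per kb, above Kcnd2 at 31.3, and Kcnma1 stood at 13.0. Each of the 6 class leaders was still first in its class.

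The count filter was passed in no comparison by 9 members, which are Kcna10, Kcna7, Kcne3, Kcnj1, Kcnj15, Kcnk15, Kcnk16, Kcnk7 and Kcnmb3. Their highest libraries held 0.0562 to 0.524 CPM. Exons of some members overlap genes on the other strand, as for Kcna6 (2355 bases), Kcnj3 (1621), Kcnma1 (1016), Kcnmb4 (693 and 355) and Kcnj13 (623). The kit marked strand, but the strand setting of the counting is not given in the sources used here, so these levels may hold reads of the partner. The map of mean levels over the 9 WT groups shows 81 of the other 84 members.

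**Figure D1:**
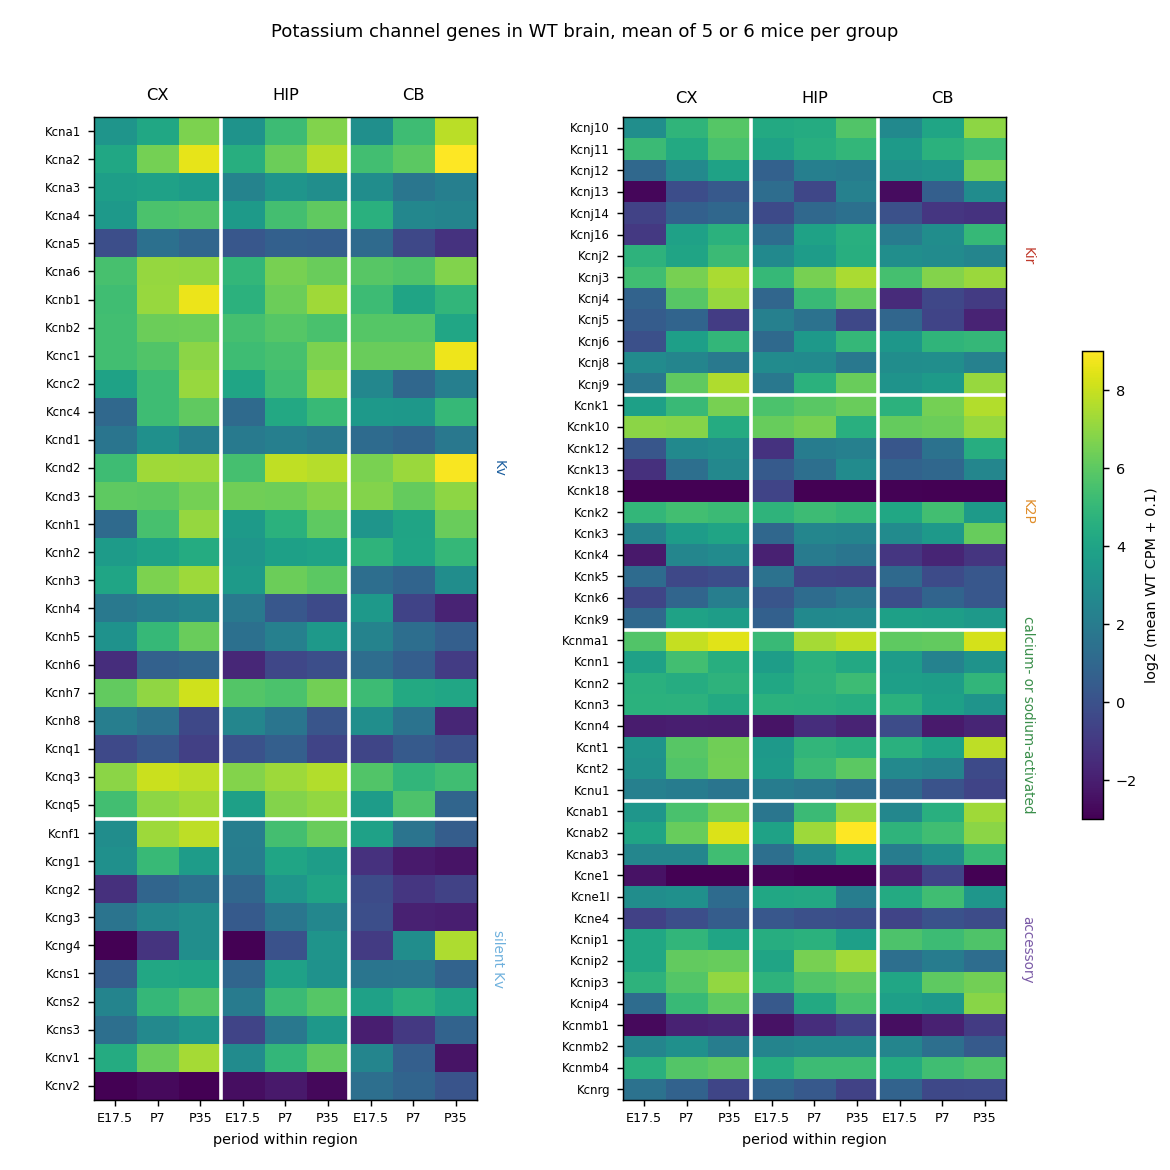
Mean WT level of 81 of the 84 potassium channel genes that passed the count filter in at least 1 comparison. Rows are genes grouped by class, columns are the 3 periods within CX, HIP and CB, and color is log2 of mean CPM plus 0.1 over 5 or 6 mice. Most rows brighten from left to right within CX and HIP, while a set of rows in CB darkens, among them Kcnf1 (from a median of 14.4 to 1.31 CPM) and Kcnv1 (from 5.52 to 0.0712 CPM).

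The summed level of the members rose with age in each region, by a different course in CB. In CX the sum was 220 ± 19.2 CPM per kb (SD, n = 6) at E17.5, 580 ± 48.3 (n = 6) at P7 and 986 ± 40.4 (n = 5) at P35. In HIP it was 207 ± 31.5, 493 ± 12.9 and 774 ± 28.2. In CB it was 234 ± 7.01, 322 ± 19.1 and 898 ± 101. CX and HIP gained near-equal amounts in both steps, and CB gained most of its sum between P7 and P35.

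The classes did not share one course in CB. The Kv sum there was 110 ± 2.40 CPM per kb at E17.5, 109 ± 11 at P7 and 369 ± 71.3 at P35, and the calcium- or sodium-activated sum 14.9 ± 0.612, 10.9 ± 1.18 and 48.5 ± 9.24. K2P genes, in contrast, went from 28.1 ± 2.07 to 63.9 ± 4.35 and 139 ± 3.83, and made up 19.8% of the members' sum in CB at P7, against 8.09% in CX. Silent subunits stood at 9.08 ± 0.685, 9.16 ± 0.420 and 53.2 ± 3.98 in CB, against 11.1 ± 2.14, 72.2 ± 6.00 and 110 ± 9.16 in CX. Most of the adult CB value was Kcng4, at 210 CPM in replicate 3 and a mean of 178 CPM in the other 4 mice. Its exons span 3806 bases. Of the 9 silent subunits tested in CB from P7 to P35 by the test given below, 3 were higher (40.0% of all genes) and 5 lower (39.4%). Their median log2 fold change was -0.62. Accessory genes held 28.9% of the sum in adult HIP, at 223 ± 8.53 CPM per kb, against 15.8% in adult CB.

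**Figure D2:**
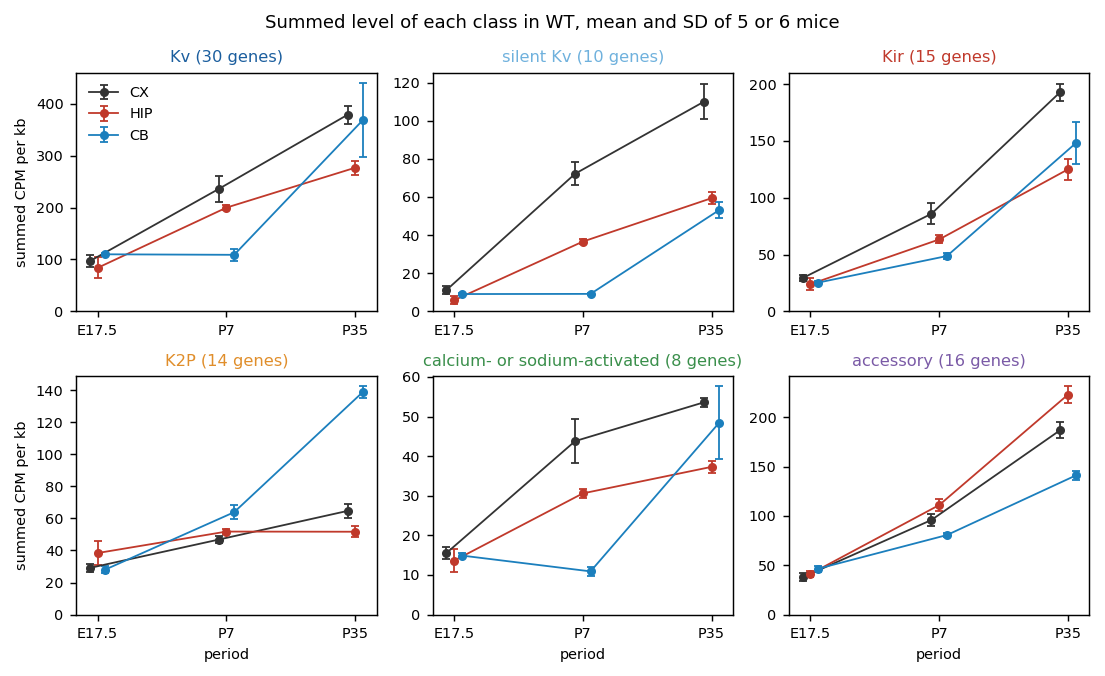
Summed CPM per kb of each potassium channel class in WT mice by period, for CX, HIP and CB. Points are means and bars SDs over 6 mice (5 at P35), and the axes start at 0. Kv and calcium- or sodium-activated genes in CB are flat or lower at P7 and high at P35, and silent subunits are at 72.2 CPM per kb in CX and 9.16 in CB at P7. Most of the silent-subunit value of CB at P35 is Kcng4.

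Development was tested within each region on WT mice, E17.5 against P7 and P7 against P35, with edgeR's quasi-likelihood test over all genes and calls at a Benjamini-Hochberg adjusted p of 0.1. A member enters a count only if it passed the count filter, so a member that passed through its high group alone had to differ, and the counts describe the members tested. In bulk tissue, fewer cells of a type and less RNA per cell cannot be told apart. Over the same ages the summed pan-neuronal markers of CX had medians of 2960, 5690 and 5880 CPM, and oligodendrocyte markers medians of 29.6, 117 and 4160 CPM, and the part of these shifts in the members' changes was not tested.

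From E17.5 to P7 in CX, potassium channel genes rose widely. Of 79 members tested, 70 were called, where 81.9% of all 18620 genes tested were called. The members' calls were mostly rises, 62 against 8 falls, where 41.3% of all genes were called higher and 40.6% lower. Of the members, 49 rose over 2-fold, where 22.9% of all genes did. The members' median log2 fold change was 1.45, against 0.01 over all genes tested, whose median stayed between -0.03 and 0.01 in the 6 period comparisons. All 9 silent subunits tested rose, with a median of 2.53, as did 23 of 28 Kv genes (median 1.33), 9 of 13 Kir genes (1.60), 8 of 10 K2P genes (1.35), 4 of 7 calcium- or sodium-activated genes (1.45) and 9 of 12 accessory genes (0.84).

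Large rises in CX were seen in genes that were low at E17.5. Kcnk4, a mechanosensitive K2P channel, went from a lowest, median and highest value of 0, 0.105 and 0.249 CPM to 3.63, 6.03 and 7.24 CPM. Its log2 fold change was 5.5 ± 0.349 (SE; adjusted p = 1e-10, edgeR). Kcnk4 shares 587 exon bases with Catsperz on the same strand, so its counts are uncertain. Kcnj4 went from 0.594, 1.5 and 3.24 CPM to 53.1, 57.1 and 68.3 CPM, without overlap, a log2 change of 5.11 ± 0.259.

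Kcnj16, a Kir subunit of glia that pairs with Kcnj10, rose from 0.0351, 0.421 and 0.854 CPM to 11.6, 15 and 16.6 CPM (log2 change 5.17 ± 0.306). Its increase went with a rise of the summed astrocyte markers from a median of 270 to 1650 CPM, whose part was not tested. Kcnh1, a Kv channel of the ether-a-go-go family, rose by 4.39 ± 0.241 on the log2 scale, from a median of 1.61 to 46.0 CPM. The falls were smaller. Kcnk5, an alkaline-activated K2P channel, fell by 1.76 ± 0.281 and Kcnj11 fell by 0.92 ± 0.129, from 28.0, 32.1 and 50.6 CPM to 17.3, 19.0 and 22.6 CPM. Kcnrg, a soluble regulator of Kv assembly, fell by 0.84 ± 0.112. Kcnj2, a strong rectifier, passed the test at -0.80 ± 0.339 (adjusted p = 0.0382, edgeR), but its groups overlapped and the call was lost without E17.5 WT replicate 5 (log2 change -0.59, adjusted p = 0.115).

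From P7 to P35 in CX the gain was smaller. Of 79 members tested, 61 were called (67.7% of all genes), 46 higher (33.2%) and 15 lower (34.5%). Among them, 25 were over 2-fold higher, where 10.3% of all genes were. Kcnab2 rose from 63.3, 71.2 and 84.0 CPM to 311, 339, 339, 327 and 329 CPM in the 5 adult mice, with no overlap and a log2 change of 2.20 ± 0.0847. Kcnab3, a related beta subunit, rose by 2.85 ± 0.0873 and Kcna1, a Kv1 subunit of axons, by 2.54 ± 0.146.

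Kcng4, a silent subunit that joins Kv2 channels, rose by 4.51 ± 0.239 in CX but stayed low, at a median of 7.12 CPM at P35. Kcnk10 had the largest fall. It stood at 104, 112 and 122 CPM at P7 and at 21.9, 21.6, 20.8, 20.7 and 19.6 CPM in the 5 adults, so every adult lay below every P7 mouse, and its log2 change was -2.38 ± 0.0554. Kcnh8, an ether-a-go-go-like Kv channel, fell by 2.03 ± 0.211, Kcnj5, a G-protein-gated Kir subunit, by 1.91 ± 0.253 and Kcne1l, a single-pass accessory subunit, by 1.80 ± 0.194.

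HIP followed the same outline. From E17.5 to P7, 68 of 81 members were called (78.0% of all genes), 59 higher (38.9%) and 9 lower (39.1%). Among them, 44 were over 2-fold higher (17.8% of all genes). The members' median was 1.25. Kcnk4 rose by 4.51 ± 0.348, Kcnj4 by 4.21 ± 0.242, Kcnip4, a Kv4 partner, by 3.95 ± 0.187 and Kcnk12, a K2P gene, by 3.60 ± 0.282 on the log2 scale. Kcnip4 went from 0.414, 1.19 and 1.82 CPM to 16.5, 20.1 and 21.5 CPM, without overlap. All 9 silent subunits tested rose over 2-fold. Kcnk5 fell by 2.26 ± 0.386, Kcnh8 by 0.85 ± 0.159 and Kcnj5 by 0.72 ± 0.132, and Kcnh4, an ether-a-go-go-like channel, by 1.67 ± 0.38 with overlapping groups.

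From P7 to P35 in HIP, 57 of 81 members were called (62.7% of all genes), 43 higher (31.3%) and 14 lower (31.5%). The members' median was 0.43. Kcnab2 reached 554 to 658 CPM, above every other WT group, from 135, 147 and 176 CPM at P7 (log2 change 1.98 ± 0.0864). Kcnab1 rose by 1.86 ± 0.103 and Kcng4 by 3.33 ± 0.185. Falls were found for Kcne1l (-2.15 ± 0.207), Kcnj5 (-2.06 ± 0.159), Kcnk10 (-1.94 ± 0.127) and Kcnh8 (-1.58 ± 0.183), each of which was also called lower in CX over this step. Kcnj13, a Kir channel of choroid plexus epithelium, was called at 2.88 ± 1.36 (adjusted p = 0.0814, edgeR), but its adult HIP values were 0.0599, 0.248, 12.8, 10.0 and 0.323 CPM. The libraries at 12.8 and 10.0 CPM had 2240 and 1550 CPM of summed choroid plexus markers, the change was -1.63 without the choroid plexus-rich libraries and -1.94 in HET mice, and neither of these was called.

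In CB, members did not rise as a group between E17.5 and P7. Of 81 tested, 67 were called (71.2% of all genes), with 32 higher (35.7%) and 35 lower (35.5%) and a median of -0.03. Kv genes fell more often than they rose, 16 against 7 of 28, with a median of -0.71, and all 6 calcium- or sodium-activated genes called fell, with a median of -0.76 over the 8 tested. Kir genes (8 higher, 2 lower of 13) and accessory genes (9 higher, 4 lower of 13) mostly rose. Over the same step the CB pan-neuronal sum moved from a median of 2370 to 2040 CPM and the dividing-cell sum from 649 to 936 CPM, whose part was not tested.

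Kcnh4 fell most in CB, from 7.49, 10.8 and 15.2 CPM to 0.469, 0.518 and 0.711 CPM, a log2 change of -4.26 ± 0.202. Kcnf1 fell by 2.27 ± 0.112, Kcna4, a fast-inactivating Kv1 subunit, by 2.09 ± 0.111 and Kcnv1 by 1.91 ± 0.146. On the other side, Kcng4 rose by 4.05 ± 0.189, from 0.225, 0.430 and 0.606 CPM to 4.65, 7.68 and 8.76 CPM. Kcna1 rose by 2.31 ± 0.132. Kcnj13 rose by 4.39 ± 1.17, with its highest P7 value, 4.72 CPM, in the library with 1490 CPM of choroid plexus markers, and by 3.20 without the choroid plexus-rich libraries.

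From P7 to P35 in CB, 72 of 81 members were called (79.4% of all genes), 46 higher (40.0%) and 26 lower (39.4%). Among them, 30 were over 2-fold higher (16.6% of all genes). Among members at 1 CPM or more, Kcng4 had the largest rise, by 4.66 ± 0.142 (adjusted p = 1.09e-15, edgeR), to 179, 187, 210, 178 and 169 CPM in the 5 adults, far above all P7 mice. Kcnt1 rose by 3.87 ± 0.155, Kcnj9 by 3.62 ± 0.125 and Kcnip4 by 3.45 ± 0.0790. Kcnip4 moved from 9.40, 10.7 and 12.1 CPM to a lowest of 105 CPM.

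Kv genes were among the highest members of adult CB. Kcna2 stood at 443, 466, 726, 578 and 427 CPM and Kcnc1, a fast-gating Kv3 channel of cerebellar neurons, at 377, 356, 601, 395 and 335 CPM, without overlap with P7. From P7 they rose by 3.08 ± 0.141 and 2.43 ± 0.133 on the log2 scale. Replicate 3 was the highest mouse for both genes, and the means of the other 4 mice were 478 ± 68.2 and 366 ± 25.8 CPM. Over this step the summed Purkinje cell markers went from a median of 1770 to 8370 CPM and granule cell markers from 2150 to 4340 CPM, and their part in the members' rises was not tested.

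Other members stood at low levels in adult CB. Kcnq5, an M-current subunit, had risen to 45.6, 50.8 and 54.2 CPM at P7 and stood at 1.65 to 2.06 CPM at P35, a log2 change of -4.80 ± 0.199. Kcnv1 fell by 3.84 ± 0.237 to a median of 0.0712 CPM, Kcnh8 by 3.83 ± 0.205 to 0.210 CPM and Kcnt2 by 2.83 ± 0.151 to 0.712 CPM. The adult groups lay wholly below the P7 groups for these 4 genes.

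**Figure D3:**
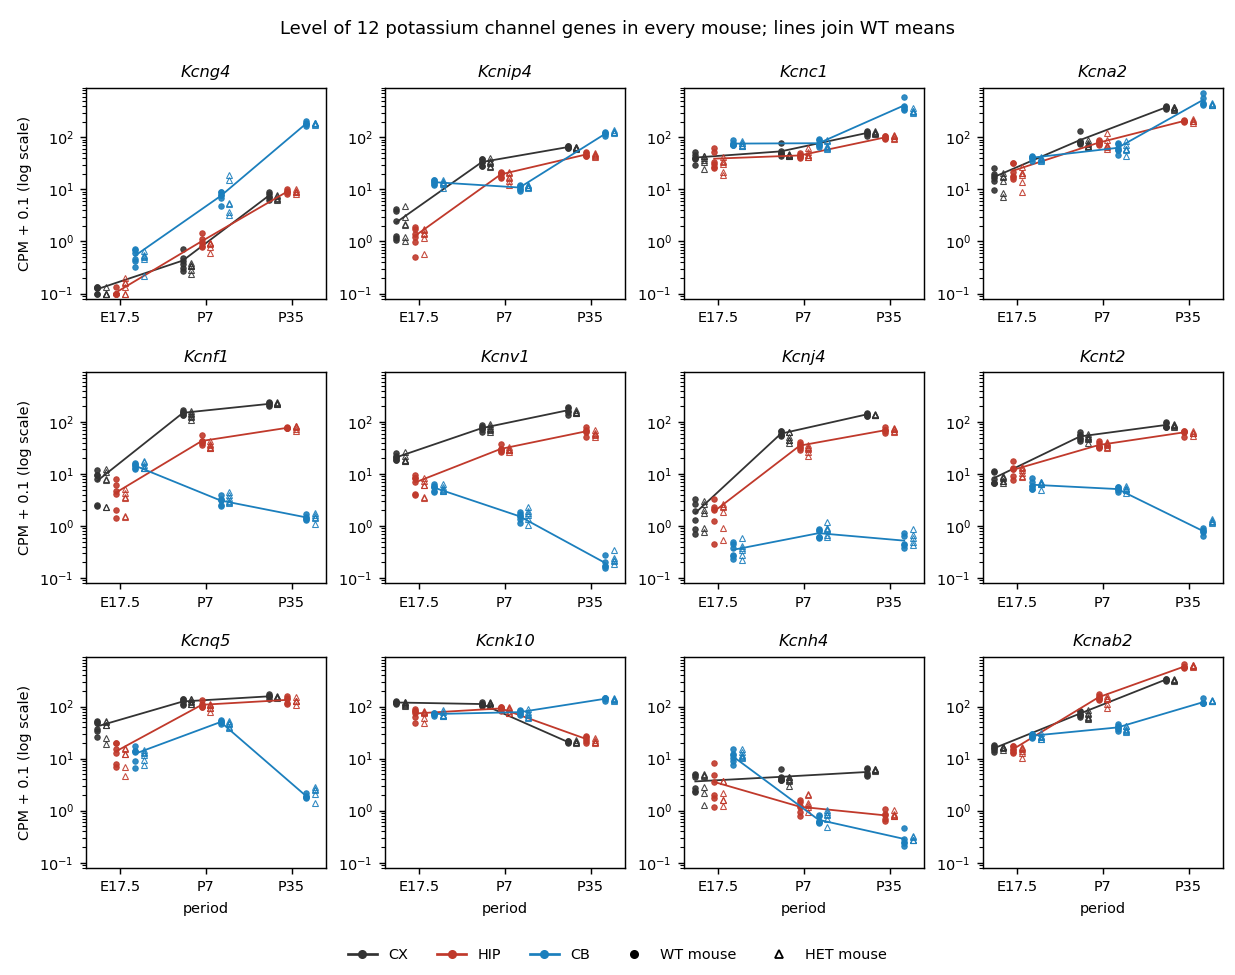
Level of 12 potassium channel genes in every mouse, as CPM plus 0.1 on a log axis, by period, with CX, HIP and CB in separate colors. Filled circles are WT mice, open triangles HET mice and lines join WT means. Kcng4 in CB runs up to 169 to 210 CPM at P35, Kcnf1, Kcnv1 and Kcnj4 part by region with CX and HIP above CB, and Kcnk10 falls in CX and HIP but not in CB.

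The bases upstream of 4 of these genes are shown because their levels part most between regions: Kcng4 and Kcnc1 high in adult CB, Kcnf1 and Kcnj4 high in forebrain. Each run is the 250 bases before the RefSeq start in GRCm38.p6, on the strand of the gene, from chr8:119635681-119635930 (Kcng4, minus strand), chr7:46396218-46396467 (Kcnc1, plus), chr12:17176889-17177138 (Kcnf1, minus) and chr15:79505242-79505491 (Kcnj4, minus). Capitals mark GGGCGG (the GC box) or CCAAT on either strand.
Kcng4: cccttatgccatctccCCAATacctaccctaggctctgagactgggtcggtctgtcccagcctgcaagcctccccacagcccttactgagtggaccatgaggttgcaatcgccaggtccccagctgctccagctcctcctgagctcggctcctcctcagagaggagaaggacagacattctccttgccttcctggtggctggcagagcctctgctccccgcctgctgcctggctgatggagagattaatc
Kcnc1: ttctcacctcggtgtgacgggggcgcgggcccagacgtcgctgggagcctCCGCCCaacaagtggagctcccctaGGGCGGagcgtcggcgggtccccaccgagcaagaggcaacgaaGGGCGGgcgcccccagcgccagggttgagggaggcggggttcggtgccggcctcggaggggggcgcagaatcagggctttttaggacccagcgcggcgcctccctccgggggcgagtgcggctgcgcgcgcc
Kcnf1: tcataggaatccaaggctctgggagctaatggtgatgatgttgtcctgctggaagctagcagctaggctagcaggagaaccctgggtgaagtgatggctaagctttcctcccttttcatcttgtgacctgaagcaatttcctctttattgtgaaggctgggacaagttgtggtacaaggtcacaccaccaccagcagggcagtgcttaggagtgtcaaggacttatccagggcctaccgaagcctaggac
Kcnj4: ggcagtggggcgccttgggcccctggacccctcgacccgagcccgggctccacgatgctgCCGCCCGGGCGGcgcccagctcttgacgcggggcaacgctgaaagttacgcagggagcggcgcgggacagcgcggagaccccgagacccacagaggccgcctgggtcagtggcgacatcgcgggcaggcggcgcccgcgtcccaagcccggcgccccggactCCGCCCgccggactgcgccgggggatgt
Kcnc1 and Kcnj4 each hold 3 GC boxes and 30 and 35 CpG pairs, while Kcng4 and Kcnf1 hold no GC box and 4 and 1 CpG pairs. In both pairs of genes high in the same region, one gene held GC boxes and the other held none. RefSeq starts were found for 68 members, of which 33 (48.5%) hold a GC box in these 250 bases, against 32.9% of all 27025 genes. Those 27025 genes were not limited to protein-coding genes, as the members were, so the shares are not like for like. CCAAT stood in 29.4% of members and 34.5% of all genes, TATAAA in 2.94% and 13.0%, and TGACGTCA in 0 members and 1.62% of all genes. These matches describe letters and not binding.

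Starts lay within 200 kb of each other for 10 pairs of members. Kcnj9 and Kcnj10 start 11.9 kb apart on chromosome 1. In P7 CX, Kcnj9, a neuronal subunit, had a lowest, median and highest value of 54.0, 65.9 and 84.3 CPM, and Kcnj10, the main Kir channel of astrocytes, 13.8, 19.0 and 81.0 CPM. At P7 in CB both were low, at medians of 11.2 and 16.5 CPM. The value of 81.0 CPM for Kcnj10 came from WT replicate 4 of P7 CX, and the mean of the other 5 mice was 18.5 ± 3.31 CPM.

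Regions were compared in WT mice within each period, with the mouse as a block. The median log2 difference of all genes tested lay between -0.02 and 0.07 in these comparisons. At E17.5 the members were spread both ways between CB and CX. Of 78 tested, 66 were called (61.7% of all genes), 38 higher (31.3%) and 28 lower (30.3%) in CB, with a median of 0.17. Kcnj6, a G-protein-gated Kir subunit, was higher in CB by 3.79 ± 0.425, Kcnj16 by 3.47 ± 0.337 and Kcnh6, an ERG-type Kv channel, by 3.14 ± 0.386. Kcng1 was lower by 4.68 ± 0.368, Kcns3 by 3.97 ± 0.234, Kcnip2 by 2.9 ± 0.299 and Kcnh3 by 2.82 ± 0.258.

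By P7 the direction was mostly lower in CB. Of 80 members, 69 were called (82.9% of all genes), 17 higher (44.1%) and 52 lower (38.8%). Among them, 40 were over 2-fold lower, where 18.3% of all genes were. Kcng1, a silent subunit, was lower by 7.87 ± 0.260, at a median of 0.103 CPM in CB and 29.2 CPM in CX. Kcnj4 was lower by 6.5 ± 0.0939, Kcnh3 by 5.75 ± 0.106 and Kcnv1 by 5.66 ± 0.107. Kcng4 was higher by 4.53 ± 0.213, Kcne1l by 2.38 ± 0.0749 and Kcnk1 by 1.42 ± 0.0577.

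At P35, 77 of 81 members were called (75.4% of all genes), 28 higher (38.9%) and 49 lower (36.5%) in CB. Among them, 37 were over 2-fold lower, against 15.8% of all genes. All 10 silent subunits were called, 8 lower and 2 higher, with a median of -2.94. Kcnv1 had 135 to 195 CPM in CX and 0.0546 to 0.180 CPM in CB, a log2 difference of -10.71 ± 0.221. Kcnj4 was lower by 8.38 ± 0.135, Kcnf1 by 7.35 ± 0.0831 and Kcng1 by 7.04 ± 0.311. The groups of these genes did not overlap.

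Among genes higher in adult CB were Kcng4 (4.63 ± 0.0928) and Kcnk10 (2.75 ± 0.0556), along with the silent subunit Kcnv2. Kcnv2 had 0 counts in all 5 CX libraries, and its CB mean of 1.0 CPM was at least 8.78-fold higher than the level of 3 counts in a CX library, 0.114 CPM. At E17.5 and P7, Kcnv2 also stood above CX in CB, with medians of 2.68 and 1.74 CPM against 0 and 0.0560 CPM.

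HIP differed less from CX. At E17.5, 40 of 78 members were called (46.5% of all genes), 17 higher (24.2%) and 23 lower (22.3%) in HIP. Kcnj16 was higher by 2.62 ± 0.340, Kcng2 by 2.56 ± 0.312, Kcnh1 by 2.48 ± 0.294 and Kcnk13 by 2.09 ± 0.403, the last with overlapping groups. Kcns3 was lower by 2.05 ± 0.207, Kcnj2 by 1.90 ± 0.351 with overlapping groups, Kcnh5 by 1.71 ± 0.259 and Kcnk12 by 1.70 ± 0.382.

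At P7, 64 of 80 were called between HIP and CX (57.0% of all genes), 19 higher (27.8%) and 45 lower (29.2%). At P35 it was 62 of 81 (51.5% of all genes), 17 higher (25.5%) and 45 lower (25.9%). Kcng2, a silent subunit, stayed higher in HIP, at 2.41 ± 0.0854 at P7 and 2.61 ± 0.132 at P35, as did Kcne1l at 1.24 ± 0.0745 and 0.89 ± 0.139 and Kcnab2 at 1.03 ± 0.0387 and 0.83 ± 0.0636. Kcnh5 was lower by 2.85 ± 0.175 at P7 and 2.78 ± 0.116 at P35, and Kcnh4 by 2.02 ± 0.187 and 2.93 ± 0.180. At P7 Kcna1 was higher by 1.06 ± 0.0858, and Kcnf1 and Kcnj9 were lower by 1.82 ± 0.0739 and 1.44 ± 0.106. At P35 Kcnip2 was higher by 1.11 ± 0.0758, and Kcnj12, a strong rectifier, and Kcnt1 were lower by 1.94 ± 0.0973 and 1.80 ± 0.130.

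Between CB and HIP, 59 of 78 members were called at E17.5 (49.5% of all genes), 37 higher (25.0%) and 22 lower (24.5%) in CB. Their median was 0.32 over the members tested. At P7, 73 of 80 were called (78.2% of all genes), 21 higher (42.3%) and 52 lower (36.0%), with a median of -0.76. At P35, 73 of 81 were called (75.1% of all genes), 34 higher (38.3%) and 39 lower (36.8%), with a median of -0.27. At P7 the summed pan-neuronal markers of WT libraries had a median of 5690 CPM in CX, 4270 CPM in HIP and 2040 CPM in CB, and the summed dividing-cell markers 67.9, 112 and 936 CPM. The part of these sums in the lower values of CB at P7 was not tested.

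The difference in developmental change was tested as an interaction of period and region over the 51 WT libraries, from E17.5 to P35. Against CX, the change in CB differed for 68 of 84 members (66.6% of all genes). It was higher for 16 (32.7% of all genes) and lower for 52 (33.9%). Among them, 42 were over 2-fold lower, where 21.0% of all genes were. The median difference was -1.02, and that of all genes rounded to 0. Silent subunits had the lowest median, -3.47, with 7 of 10 lower, and 21 of 28 Kv genes were lower.

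Kcnv1 differed most, by -8.75 ± 0.307, followed by Kcnf1 (-8.52 ± 0.371), Kcnh4 (-6.58 ± 0.517) and Kcnt2 (-6.54 ± 0.193). Kcnf1 shows the course mouse by mouse. In CX it went from 2.28, 8.79 and 12 CPM to 134, 152 and 169 CPM, and then to 199, 234, 212, 239 and 228 CPM. In CB it went from 12.3, 14.4 and 16.5 CPM to 2.36, 3.07 and 3.79 CPM, and then to 1.25, 1.42, 1.63, 1.31 and 1.23 CPM, so that it began higher in CB and ended lower.

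Kcnk10 went the other way, with a difference of 3.5 ± 0.12 in favor of CB. Its CB values were 64.5, 72.0 and 76.4 CPM, then 69.4, 78.6 and 87.3 CPM, then 148, 143, 141, 129 and 146 CPM, while the adult CX values were 19.6 to 21.9 CPM. Kcnk3 (1.71 ± 0.240) and Kcnk12 (1.66 ± 0.403) also changed more in CB.

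Of 78 members with a fitted change in both regions, 11 rose over 2-fold from E17.5 to P35 in CX and fell over 2-fold in CB, where 2.66% of 17704 genes did so: Kcna4, Kcna5, Kcnf1, Kcng3, Kcnh5, Kcnh6, Kcnh7, Kcnj14, Kcnq5, Kcnt2 and Kcnv1. No member did the reverse (0.644% of all genes). Another 29 rose over 2-fold in both regions (13.4% of all genes) and 4 fell in both: Kcne1l, Kcnh8, Kcnj5 and Kcnrg (11.6% of all genes). These counts come from fold size and not from a call of each change.

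**Figure D4:**
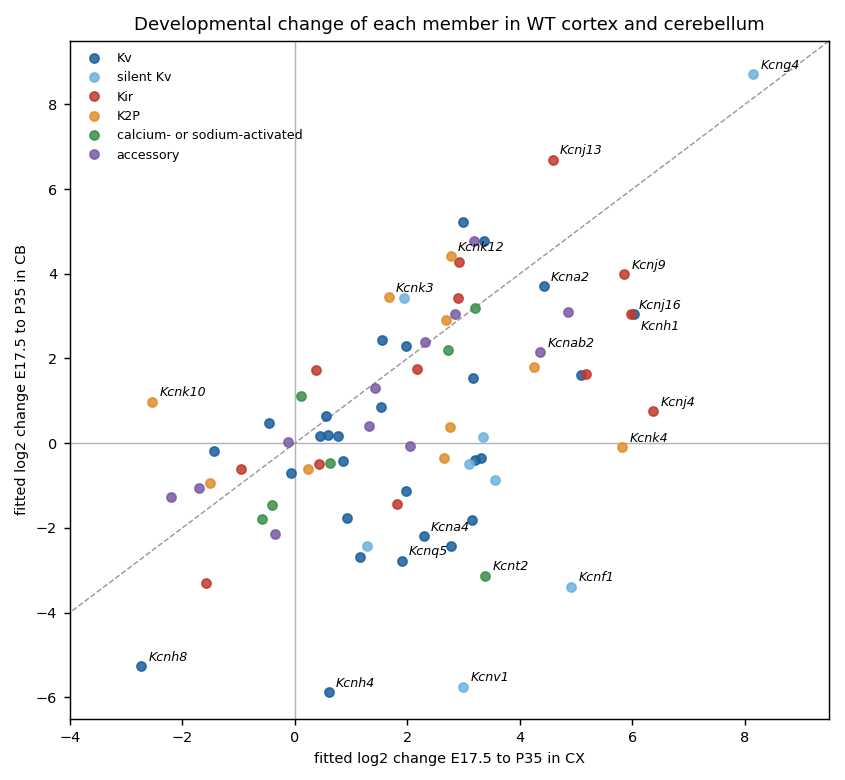
Change from E17.5 to P35 of 78 potassium channel genes in WT mice, CX on the horizontal and CB on the vertical axis, both as log2 fold change and colored by class. Each point is 1 gene, from the sum of the 2 fitted steps over 6 mice each at E17.5 and P7 and 5 at P35. The lower right of the plot holds genes up in CX and down in CB, with Kcnf1 at 4.91 and -3.39 and Kcnv1 at 2.99 and -5.75.

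For HIP against CX the interaction was called for 48 of 84 members (44.3% of all genes), 17 higher (21.9%) and 31 lower (22.4%). The members' median was -0.19. Kcns3 (2.13 ± 0.238), Kcnab1 (2.08 ± 0.124), Kcnq5 (1.42 ± 0.140) and Kcnip2 (1.41 ± 0.25) gained more in HIP. Kcnh1 (-3.53 ± 0.268), Kcnh4 (-2.81 ± 0.465), Kcnj16 (-2.60 ± 0.286) and Kcnk1 (-2.05 ± 0.120) gained less or fell. Kcnh1 began at a median of 12.2 CPM in HIP and 1.61 CPM in CX and ended at 62.8 and 137 CPM.

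The comparisons were repeated in HET mice, which are other animals but share title codes with WT mice at E17.5 and P7. Of the 62 members that rose in WT CX from E17.5 to P7, 61 were called higher in HET mice, as were 42 of the 46 that rose in CB from P7 to P35. Of the members that fell in those intervals, 5 of 8 in CX and 21 of 26 in CB were called lower in HET mice. Of the 52 with a lower change in CB than CX, 50 were called lower in HET mice, and none of the 52 had the opposite sign. Elsewhere some did, as 1 of the 46 that rose in CB and 2 of the 45 lower in HIP than CX at P35. The share of all genes repeated in HET mice was not computed, so these counts are not read as particular to the members. Kcnf1 differed by -8.58 and Kcnv1 by -8.18 in that interaction in HET mice.

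Genes that work with potassium channels but carry other symbols were read from a list of 21, among them Hcn channels, Dpp6 and Dpp10, sulfonylurea receptors and the Kv1-clustering Cntnap2. In CX from E17.5 to P7, 17 of 19 tested were called, 14 higher, with a median of 0.59, against 1.45 for the members, where 81.9% of all genes were called and 41.3% were called higher. In CB from P7 to P35 all 19 were called, 13 higher and 6 lower, with a median of 1.07, against 0.53 for the members, where 79.4% of all genes were called and 40.0% were called higher.

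Genotype was tested within each period and region, HET against WT. No member was called in any of the 9 comparisons, and the only gene called in each was Cul3. It made up 0.00603%, 0.00586% and 0.00568% of all genes tested in E17.5 CX, HIP and CB, 0.00566%, 0.00563% and 0.0057% at P7, and 0.00569%, 0.00584% and 0.00584% at P35. DESeq2 also called 0 members, with 2, 1, 1, 4, 4, 3, 3, 4 and 12 at an unadjusted p under 0.05 in the order given next. At an unadjusted p under 0.05 by edgeR, 2 of 74, 0 of 76 and 0 of 78 members passed in E17.5 CX, HIP and CB, 2 of 78, 4 of 80 and 3 of 78 at P7, and 5 of 79, 4 of 79 and 13 of 74 at P35. The shares of all genes at that p were 1.67%, 2.29%, 3.5%, 3.22%, 5.05%, 4.89%, 3.66%, 6.25% and 14.4% in the same order.

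Fitted differences were small outside E17.5 HIP. Among members at 1 CPM or more, Kcnj13 aside, all 73 in P35 CX and all 71 in P35 HIP lay within 0.5 on the log2 scale, with a median SE of 0.0679 and 0.0777. In E17.5 HIP the median SE was 0.288 and 62 of 71 lay within 0.5, with Kcnj6 lowest at -0.87. With the replicate number as a block, 17 of 74 members passed an unadjusted p of 0.05 in E17.5 CX, where 14.5% of all genes did. In E17.5 HIP 23 of 76 did, against 10.1% of all genes, and none was called in either.

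In E17.5 HIP the fitted values leaned to one side without a call: 14 of 76 lay above 0, with a median of -0.18, where 50.8% of all genes lay above 0. Without the 4 E17.5 mice numbered 3 and 4, 16 of 76 lay above 0 and the median was again -0.18. Leaving out each mouse in turn gave medians of -0.28 to -0.12, and without choroid plexus-rich libraries 21 of 75 lay above 0 with a median of -0.13. In E17.5 CX, 22 of 74 lay above 0 with a median of -0.09, and 30 of 75 with a median of -0.03 without those mice. In P7 CX 22 of 78 lay above 0, with a median of -0.07, against 50% of all genes, and in P35 HIP 53 of 79, with a median of 0.02, against 48.7%. Among the 12 E17.5 HIP libraries, the 2 lowest neuronal marker sums, 1420 and 1500 CPM, were in HET mice numbered 3 and 4, and their part was not tested.

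Kcnrg was lower in HET at an unadjusted p under 0.05 in E17.5 CX (-0.31 ± 0.113, WT 2.77 ± 0.216 and HET 2.24 ± 0.259 CPM, SD) and P35 CB (-0.62 ± 0.208, WT 0.680 ± 0.139 and HET 0.445 ± 0.0867 CPM). WT and HET mice overlapped in both, and the adjusted p in edgeR was 0.991 and 0.310.

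Kcnj13 gave the fitted values furthest from 0, at -2.52 ± 1.29 in E17.5 HIP (WT 2.34 ± 5.36 CPM, HET 0.430 ± 0.280, SD), 2.12 ± 1.21 in P7 HIP (0.645 ± 0.498 against 2.81 ± 6.19 CPM) and 1.73 ± 0.638 in P7 CB (1.44 ± 1.67 against 4.69 ± 2.61 CPM). Its groups overlapped in all 3 and none was called. The highest values, 13.3 CPM in WT replicate 2 of E17.5 HIP and 15.4 CPM in HET replicate 1 of P7 HIP, were in libraries with 4750 and 4320 CPM of choroid plexus markers. The sign turned to 1.25 and to -1.18 without these libraries. In P7 CB the value was -0.46 without the choroid plexus-rich libraries, a fit in which replicate 3 was the only HET library left. Leaving out each mouse in turn in P7 CB gave 1.5 to 2.59.

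The smallest unadjusted p values, named after the values were seen, belonged to Kcnt2 in P35 CB and Kcnj2 in P35 HIP. Kcnt2 had 0.7 ± 0.108 CPM in WT and 1.1 ± 0.0772 in HET, without overlap, a log2 difference of 0.68 ± 0.145 (adjusted p = 0.293, edgeR). Kcnj2 had 22.8 ± 1.68 CPM in WT and 16.9 ± 3.04 in HET, with overlap, a log2 difference of -0.42 ± 0.0987 (adjusted p = 0.796, edgeR). Without the choroid plexus-rich libraries, the 13 members under an unadjusted p of 0.05 in P35 CB became 1. The share of all genes went from 14.4% to 1.52%. Those libraries included 2 of the 5 WT and 3 of the 5 HET libraries, so fewer mice and less choroid plexus cannot be told apart. In the same setting the members went from 0 to 3 in E17.5 HIP and 0 to 1 in E17.5 CB (3.83% and 3.08% of all genes). They went from 4 to 3 in P7 HIP and 4 to 8 in P35 HIP (3.4% and 10.4%). In P7 CB the setting left replicate 3 as the only HET library, so its count is not given.

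**Figure D5:**
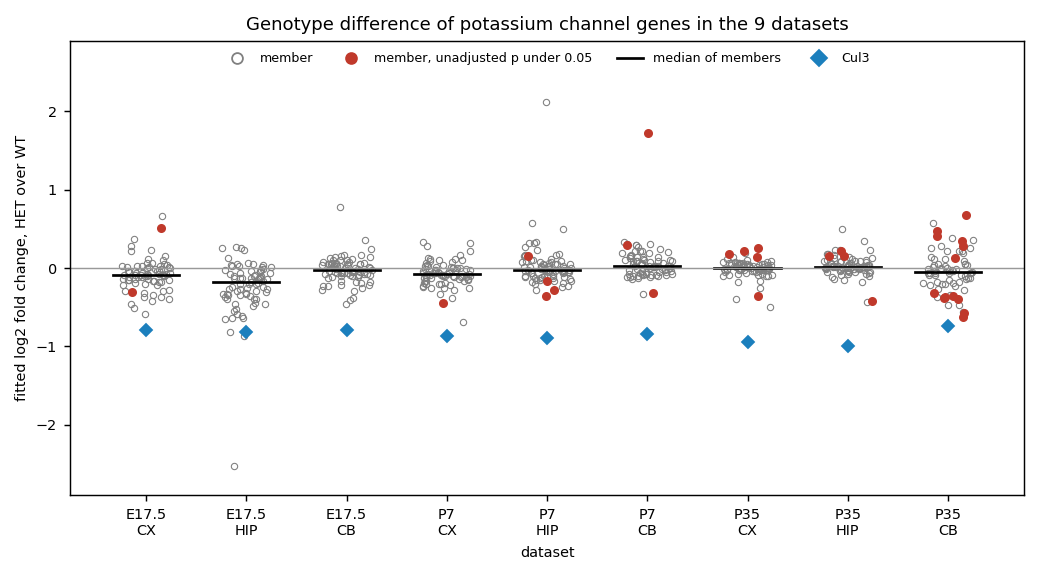
Fitted log2 fold change, HET over WT, of each potassium channel gene in the 9 period-by-region comparisons, over 6 against 6 mice (5 against 5 at P35). Open gray circles are members, red circles members at an unadjusted p under 0.05, black bars the members' medians and blue diamonds Cul3. Medians sit near 0 and lowest in E17.5 HIP (-0.18), the 3 members furthest from 0 are Kcnj13 (-2.52 in E17.5 HIP, 2.12 in P7 HIP and 1.73 in P7 CB), and Cul3 lies between -0.99 and -0.74.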

How the data were processed

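RNA of 108 mouse brain libraries was sequenced as stranded total RNA in paired ends. The authors trimmed reads with cutadapt 1.14, aligned them with STAR 2.5.3a to GRCm38.p5 (mm10) and deposited RSEM 1.3 expected counts per gene, with no normalization. Of the deposited values 5.76% were not whole, and expected counts were rounded before testing. Reads shared by near-identical genes are split by that estimate.

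The members and gene lists were chosen with earlier results of these data known. Groups followed the labels, and mice, each giving 1 library per region, were the replicates. The 6 libraries of 2 adult mice with opposite genotypes in the labels and the study's sample table were left out. No 2 libraries of a group agreed within sampling noise.

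Counts were analysed with edgeR 4.0.16 in R 4.3.3: filterByExpr (minimum count 10, minimum total 15), TMM factors, glmQLFit and glmQLFTest, and Benjamini-Hochberg adjustment over all genes tested, with calls at 0.1. Genotype was fitted within each period and region, period within each region of WT mice, and region and interaction with the mouse as a block, since the 3 regions came from the same mice. The deviations of same-numbered WT and HET mice correlated above 0.1 in all 6 pairs of E17.5 CX. In E17.5 HIP and CB, from the same mice, 5 of 6 pairs did. The median correlations in E17.5 CX, HIP and CB were 0.474, 0.335 and 0.292, against -0.094, -0.03 and -0.017 for the other pairs. At P7 and P35 the same-numbered medians ran from -0.064 to 0.19. The main genotype fits held no replicate block. Title codes are shared by same-numbered WT and HET mice at E17.5 and P7, their meaning is not given, and the replicate block also removes differences between codes. An SE is the absolute log2 fold change over the square root of F. Scripts were tested on simulated counts. Alternatives were upper-quartile scaling, DESeq2 1.42.0, no filter, RUVs (factors of unwanted variation, 3 or 5), HET mice, the 2 adult mice put back, the replicate number as a block and each mouse left out. The settings without the E17.5 mice numbered 3 and 4, and without libraries over 200 CPM of choroid plexus markers, were chosen after seeing the data.

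Genes were named by rule. These were the 4 called members furthest each way with at least 1 CPM in a group, the 4 highest per kb in each class, and for genotype those under an unadjusted p of 0.05 with the same sign in at least 2 datasets. Some genes that the rule names are not reported here. Kcnc1 and Kcna2 in adult CB, Kcnj9 and Kcnj10 as neighbours, Kcnv2 at E17.5 and P7, and Kcnt2, Kcnj2, Kcnj6 and Kcnj13 for genotype were named after their values were seen.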

Additional observations from a re-analysis of the deposited data

Results flagged for a closer look

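In 7 of the 75 groups of mice for which a level of a member is given above, 1 mouse stood apart from the others of its group by the Dixon gap test. That limit lets through about 1 in 20 groups of normally distributed values chosen beforehand. Several of these groups were printed after their values were seen, so the count cannot be set against that rate. Kcnc1, a fast-gating Kv3 channel, was at 601 CPM in WT replicate 3 of adult CB, above the other 4 mice. Kcng1, a silent subunit, was at 60.6 CPM and Kcnj10, the main Kir channel of astrocytes, at 81.0 CPM in WT replicate 4 of P7 CX. Kcnj13, a Kir channel of choroid plexus epithelium, was at 4.72 CPM in WT replicate 6 of P7 CB, 13.3 CPM in WT replicate 2 of E17.5 HIP and 15.4 CPM in HET replicate 1 of P7 HIP. Kcnv2 was at 0.0288 CPM in WT replicate 1 of E17.5 CX, where the other libraries held 0 counts.

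The change from E17.5 to P35 differed between regions by a test of the difference for each of 15 named members. They were named as called members furthest each way in that same test, so their calls follow from the choice. Over all genes, 66.6% were called in CB against CX and 44.3% in HIP against CX. In CB against CX the log2 difference was 3.5 for Kcnk10, 1.71 for Kcnk3 and 1.66 for Kcnk12, and -8.75 for Kcnv1, -8.52 for Kcnf1, -6.58 for Kcnh4 and -6.54 for Kcnt2. In HIP against CX it was 2.13 for Kcns3, 2.08 for Kcnab1, 1.42 for Kcnq5 and 1.41 for Kcnip2, and -3.53 for Kcnh1, -2.81 for Kcnh4, -2.60 for Kcnj16 and -2.05 for Kcnk1. In HET mice each of these 15 differences had the same sign and was called.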

How the results depend on the processing

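The counts of members called by period, region and interaction stayed within 1.5 times their value under every alternative run, as did the genotype count of 0 with upper-quartile scaling, DESeq2, no filter and the 2 adult mice put back. RUVs called members by genotype: in E17.5 HIP 1 with 5 factors (Kcnj10), in P7 HIP 1 with 5 factors (Kcnj13), in P7 CB 1 with 3 and 1 with 5 factors (Kcnj13), in P35 HIP 2 with 3 factors (Kcnj2 among them) and 4 with 5 factors (Kcnj2, Kcna4 and Kcnh3 among them), and in P35 CB 1 with 3 and 1 with 5 factors (Kcnc2). The share of all genes called with RUVs is not given here, so these counts are not read as particular to the members. The cause was not tested. Leaving out each mouse gave 0 to 1 members in P35 HIP, the 1 being Kcnj2 without HET replicate 5 (adjusted p = 0.0502, edgeR), and 0 in the other 8 genotype comparisons. Without a mouse the counts were 69 to 71 in CX and 65 to 70 in CB from E17.5 to P7, and 66 to 69 for the interaction of CB with CX.

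With the replicate number as a block, 0 members were called by genotype in any of the 9 comparisons. The pairs of E17.5 CX had correlations of 0.113 to 0.759, and in each other comparison at least 1 pair was below 0.1. Leaving the mouse block out of the region fits gave 36, 63 and 56 members called at E17.5, 65, 69 and 72 at P7 and 60, 74 and 73 at P35, for HIP against CX, CB against CX and CB against HIP.

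Of the single-gene log2 values tried, 2288 kept their direction and side of the threshold, 11 lost the call, 5 gained one (by genotype, Kcnj2 in P35 HIP and Kcnj13 in P7 CB, in the settings given above) and 11 reversed, all of Kcnj13. Kcnj13 in HIP from P7 to P35 reversed, to -1.94 in HET mice and -1.63 without choroid plexus-rich libraries, and lost its call in 9 settings at 2.08 to 2.99. Kcnj2 in CX from E17.5 to P7 lost its call in HET mice (-0.60) and without E17.5 WT replicate 5 (-0.59). By genotype, Kcnj13 in E17.5 HIP turned to 0.82 and 1.06 with RUVs of 3 and 5 factors and 0.19 with the replicate block, and ran from -2.84 to 1.25 with each mouse left out. In P7 HIP it turned to -1.20 and -1.60 with RUVs and -1.18 without choroid plexus-rich libraries. With each mouse left out there, it ran from -1.18 to 2.45. In P7 CB it turned to -0.46 without choroid plexus-rich libraries, where replicate 3 was the only HET library left. With each mouse left out in P7 CB, it ran from 1.5 to 2.59. With the longest coding transcript as the length, Kcnab2 stood at 35.5 and Kcnma1 at 13.0 CPM per kb. Other scaling moved the median of all genes by at most 0.067 on the log2 scale. The 9 members that passed no filter, with highest libraries of 0.0562 to 0.524 CPM, were not tested, and in E17.5 HIP the median SE of members was 0.288.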
